A study of Mus musculus with 6 samples.

Results

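The chemokine system of the mouse was represented in the deposited table by 65 of 41709 genes, taken by symbol: all Ccl, Cxcl, Cx3cl and Xcl ligands, all Ccr, Cxcr, Cx3cr, Xcr and Ackr receptors, and Pf4, Ppbp and Ccrl2. They comprised 41 ligands, 19 receptors that signal through G proteins, and 5 atypical receptors, counting Ccrl2. RNA-seq was done on 6 tibialis anterior (TA) muscles of male C57BL/6J mice, 14 days after electroporation of a plasmid. In the 3 LrpprcWT muscles the plasmid pCMV6-LrpprcWT-3xFlag carried Flag-tagged wild-type mouse Lrpprc under a CMV promoter, and in the 3 LrpprcP27A muscles pCMV6-LrpprcP27A-3xFlag carried the same protein with proline 27 replaced by alanine, so that this residue resists dihydroxylation. Both groups kept their own Lrpprc gene, and every muscle, controls included, received hyaluronidase, plasmid DNA and electric pulses, so injury and foreign DNA were shared by the groups and no untouched muscle was compared. The contralateral muscles of the same mice received the other plasmid, and the age of the mice used for RNA-seq is not given in the labels (the methods describe mice of 4 and 27 months).

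Chemokines are small secreted proteins that draw leukocytes towards their source along a gradient. CC and CXC ligands, named for the spacing of their first cysteines, bind receptors on leukocytes that signal through Gi proteins, while atypical receptors bind ligands without that signalling and remove or store them. In injured skeletal muscle, ligands such as Ccl2 recruit monocytes, Cxcl1 and Cxcl2 recruit neutrophils, and homeostatic ligands such as Cxcl12 keep precursor cells and lymphocytes in place.

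The level of each gene was given as TPM, the share of a library's transcripts after correction for transcript length, which allows levels of different genes to be compared. TPM keeps no read number, so the depth of the libraries is unknown. Between 17774 and 19053 genes were above 0 in a library. The transcript of Lrpprc itself, from the plasmid and the mouse gene together, was at 35.1, 37.0 and 75.2 TPM in LrpprcWT replicates 1 to 3 and at 26.9, 29.7 and 26.0 TPM in the LrpprcP27A muscles (log2 fold change -0.72 ± 0.26 SE, limma adjusted p = 0.0652, and 0.00243 with the replicate number as a block, which treats the contralateral muscles as pairs). With median-of-ratios scaling, described below, the log2 fold change of Lrpprc was -0.31 (limma adjusted p = 0.402, and 0.295 with the block added). By qRT-PCR the paper reported similar Lrpprc mRNA with both plasmids in young mice and no significant difference in old mice. The libraries labelled LrpprcWT replicate 2 and LrpprcWT replicate 3 stood apart from the rest of their group for several ligands described here, the former at low and the latter at high values.

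Promoters of several ligands are shown first, because 4 CXC genes of a chromosome 5 cluster carry the same 11 letters. These hold a perfect match to the site read by NF-kB, a transcription factor of inflammatory signalling. Of the 4 genes, Cxcl3 and Cxcl5 had too little RNA to be tested. The letters GGGAATTTCCC, searched on both strands, occurred within 250 bases upstream of the start in 11 of 21751 protein-coding genes, or 0.0506%. Of these 11 promoters, 4 belonged to Cxcl1, Cxcl2, Cxcl3 and Cxcl5. These letters were chosen after the promoters had been read. The sequences are from the GRCm39 genome with GENCODE vM39 starts, written 5′ to 3′ on the gene's strand, with these 11 letters in capitals.
Cxcl1 (chr5:91039008-91039067, plus strand): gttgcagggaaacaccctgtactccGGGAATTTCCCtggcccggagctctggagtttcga
Cxcl2 (chr5:91051636-91051695, plus strand): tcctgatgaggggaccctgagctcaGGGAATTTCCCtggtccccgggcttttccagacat
Cxcl3 (chr5:90933862-90933921, plus strand): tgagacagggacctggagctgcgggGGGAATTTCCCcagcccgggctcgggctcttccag
Cxcl5 (chr5:90907104-90907163, plus strand): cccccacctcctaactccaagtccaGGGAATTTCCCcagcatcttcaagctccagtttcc

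The wider 10-letter kappaB consensus, searched on both strands with overlapping matches kept, was present upstream of 13 of the 65 chemokine genes, against 7.62% of all promoters. Of the 28 genes with enough RNA to be tested it was found in 5, namely Cxcl1, Cxcl2, Cxcl10, Ccl5 and Ccl9. It was not found upstream of Ccl7 and Ccl2, which followed Cxcl1 in the size of their log2 decrease. Nor was it found for Ppbp, Pf4 and Cxcl15, which lie in the cluster of Cxcl1. The interferon-induced ligand Cxcl10 held separate matches, given in capitals in its promoter.
Cxcl10 (chr5:92496834-92496913, minus strand): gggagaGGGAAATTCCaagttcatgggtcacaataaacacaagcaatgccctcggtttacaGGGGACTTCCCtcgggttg

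Ccl7 and Ccl11, which are adjacent on chromosome 11 and differed in response, are shown by their last 100 bases before the start, with the TATA box letters TATAAA, searched on the gene's strand only, in capitals. TATAAA was present in 8.03% of all promoters and in that of Ccl7, but these letters were not found in the window of Ccl11. The AP-1 letters TGANTCA, searched on both strands, were present in 6.17% of all promoters and in 8 of the 65, among them Ccl7 and Cxcl10. A match of letters is a description and does not show that a factor binds there.
Ccl7 (chr11:81936432-81936531, plus strand): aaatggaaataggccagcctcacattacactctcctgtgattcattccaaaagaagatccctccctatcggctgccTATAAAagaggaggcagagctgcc
Ccl11 (chr11:81948518-81948617, plus strand): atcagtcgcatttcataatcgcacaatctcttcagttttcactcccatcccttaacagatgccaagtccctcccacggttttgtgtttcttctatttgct

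Chemokine RNA was lower in the LrpprcP27A muscles. The summed TPM of all 65 genes was 436, 282 and 569 in LrpprcWT replicates 1 to 3 and 236, 178 and 236 in LrpprcP27A replicates 1 to 3, so that the groups did not overlap. Ligands made up most of these sums, 382 ± 137 TPM with LrpprcWT and 188 ± 31.6 TPM with LrpprcP27A (SD, n = 3). The signalling receptors summed to 21.3 ± 2.79 and 8.60 ± 2.55 TPM, and the atypical receptors with Ccrl2 to 25.7 ± 3.86 and 20.5 ± 2.13 TPM (SD, n = 3). The receptor Cxcr4 alone averaged 12.2 and 4.41 TPM within the sums of the signalling receptors. In whole muscle, fewer cells of a type and less RNA per cell cannot be told apart.

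Only 28 of the 65 genes reached a mean of 1 TPM over the 6 libraries and were tested with limma on log2(TPM + 1), a scale that understates the change of low genes. They were 23 of the ligands, the signalling receptors Cxcr4 and Ccr2, and Ackr1, Ackr3 and Ccrl2. Another 31 genes were above 0 but below this level, and 6 (Ccl20, Ccl26, Ccl27b, Cxcl15, Cxcl17 and Ccr1l1) were listed at 0 in every library.

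Of the 28 genes tested, 16 were lower with LrpprcP27A at an adjusted p under 0.05 in limma, or 57.1%, and 0 were higher, where 23.3% of all 11611 genes tested were called lower and 1.34% higher. Before adjustment, 22 of the 28 had a p under 0.05, all lower, beside 44.2% of all genes tested that were lower at such a p. The groups did not overlap for 19 of the 28, all lower, or 67.9%, against 47.6% of all genes tested that were lower without overlap and 3.51% that were higher. A log2 fold change below -1 was found for 11 of the 28, or 39.3%, against 5.31% of all genes tested. Median log2 fold changes were -0.91 for the tested ligands and -0.40 for the tested receptors, beside -0.32 for all genes tested. The whole table leaned to lower values, with 88.0% of genes below 0, and the cause was not tested. Median-of-ratios scaling, which moved the median of all genes to 0.036, left 9 of the 28 called lower and 0 higher, beside 5.8% and 6.83% of all genes, and left the ligands at a median of -0.69 and the receptors at -0.13. The number of calls depended on single libraries, over the whole table as well as among the chemokines. Without LrpprcWT replicate 3 limma called 0 of the 28, although 19 had an unadjusted p under 0.05, and it called 0.129% of all genes lower. Without LrpprcWT replicate 1 it called 3 of the 28 and 2.51% of all genes. The median of the ligands was -0.90 and -0.97 in these fits, beside -0.91 with all libraries. Without LrpprcP27A replicate 2 or replicate 3, 7 of the 28 were called in each case, beside 4.34% and 3.79% of all genes. With the replicate block, 23 of the 28 were called lower and 0 higher, beside 48.4% and 2.69% of all genes.

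**Figure D1:**
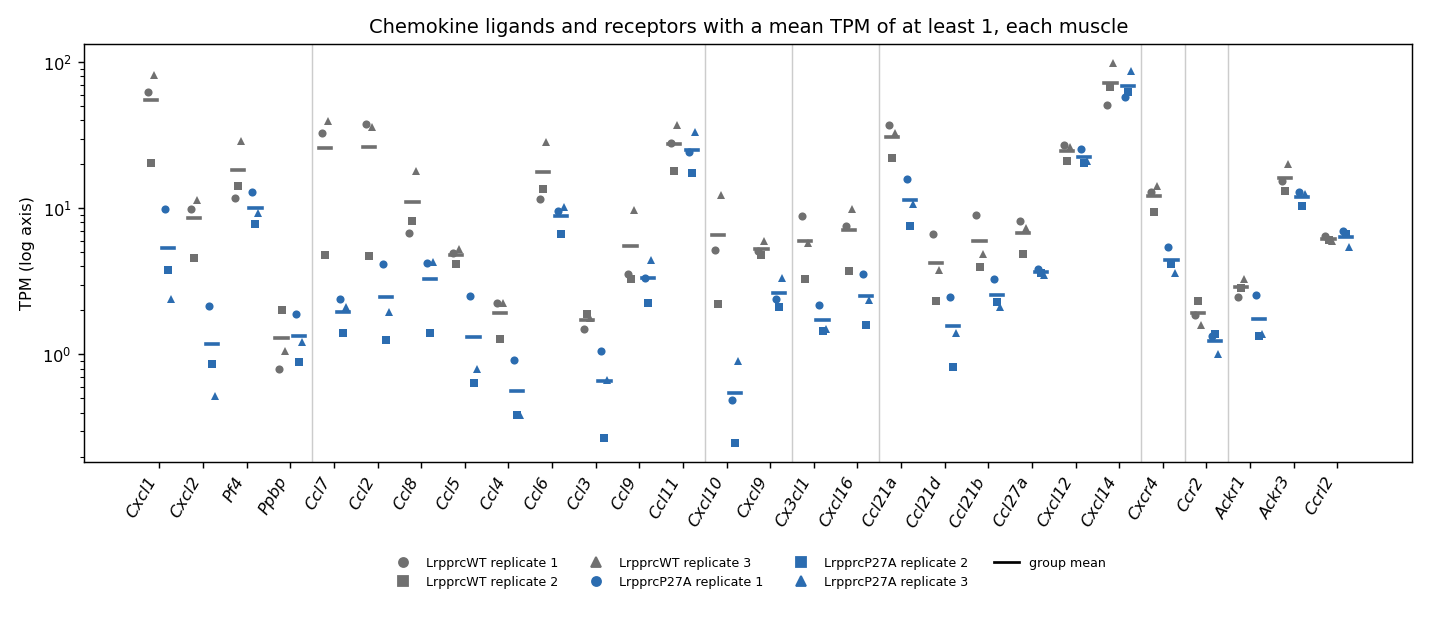
TPM (log axis) of the 28 tested chemokine genes in each of the 6 muscles, grouped by role and divided by vertical lines, with LrpprcWT in grey, LrpprcP27A in blue, a symbol for each replicate and a bar for the group mean (n = 3). Cxcl1, Ccl2, Ccl7 and Cxcl10 show the widest gaps between the group means, although the muscles of the groups barely separate for Ccl2. Cxcl12, Ccl11, Cxcl14, Ppbp and Ccrl2 overlap.

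The ELR-type CXC ligands Cxcl1 and Cxcl2, which act on Cxcr2 of neutrophils, fell with LrpprcP27A. Cxcl1 was at 63.1, 20.4 and 81.4 TPM in LrpprcWT replicates 1 to 3 and at 9.91, 3.78 and 2.39 TPM in LrpprcP27A replicates 1 to 3. Every LrpprcP27A muscle lay below the lowest LrpprcWT muscle, which was replicate 2, and the log2 fold change of -3.11 ± 0.54 (SE, limma adjusted p = 0.0154) was the largest decrease of the 28 genes on this scale. As a ratio of the mean TPM of the groups, Cxcl1 was 10.3-fold lower, and Ccl7, Cxcl10 and Ccl2 were 13.2-fold, 12.1-fold and 10.6-fold lower. Cxcl2 was at 9.95, 4.60 and 11.4 TPM with LrpprcWT and at 2.14, 0.863 and 0.516 TPM with LrpprcP27A (log2 fold change -2.14 ± 0.34 SE, limma adjusted p = 0.0130). Its groups did not overlap either, and replicate 2 was again the lowest of the LrpprcWT muscles. Cxcl1 and Cxcl2 were also called with median-of-ratios scaling (limma adjusted p = 0.0288 and 0.0260) and were, with Cxcr4, the genes called without LrpprcWT replicate 1.

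The platelet chemokines of the same cluster, Pf4 and Ppbp, which are stored in platelet granules and in the case of Pf4 also made by macrophages, did not pass the test. Pf4 was at 11.8, 14.2 and 28.8 TPM with LrpprcWT and at 12.9, 7.85 and 9.31 TPM with LrpprcP27A, and the groups overlapped because replicate 1 of LrpprcP27A exceeded replicate 1 of LrpprcWT (log2 fold change -0.73 ± 0.30 SE, limma adjusted p = 0.0952, and 0.00615 with the replicate number as a block). Ppbp averaged 1.29 ± 0.642 and 1.34 ± 0.513 TPM (SD, n = 3), with a log2 fold change of 0.04 (limma adjusted p = 0.880) whose sign depended on the libraries included. The ratio of Cxcl1 to Pf4 within a library was 5.36, 1.44 and 2.82 with LrpprcWT and 0.765, 0.481 and 0.256 with LrpprcP27A. A ratio within a library does not depend on how libraries are scaled, and these ratios did not overlap between the groups (exact permutation test of their logarithms, two-sided, p = 0.1, the smallest that 3 against 3 can give). The exact tests of this and the other ratios took the muscles as independent and ignored the pairing of contralateral muscles. The gene pairs for this and the other ratios given here were chosen after their values had been seen.

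In one chromosome 11 cluster of CC ligands, Ccl2, Ccl7 and Ccl8, which attract monocytes, fell, whereas Ccl11 and the scarce Ccl12, described with the other low genes, overlapped between the groups. Ccl2, the main ligand of Ccr2, was at 37.7, 4.71 and 36.0 TPM with LrpprcWT and at 4.15, 1.25 and 1.97 TPM with LrpprcP27A (log2 fold change -2.63 ± 0.67 SE, limma adjusted p = 0.0299). LrpprcWT replicate 2 was close to the highest LrpprcP27A muscle, so that the groups barely separated. Ccl7, another ligand of Ccr2, was at 32.6, 4.83 and 39.8 TPM with LrpprcWT and at 2.38, 1.40 and 2.10 TPM with LrpprcP27A (log2 fold change -2.77 ± 0.62 SE, limma adjusted p = 0.0242). LrpprcWT replicate 2 again lay between the other LrpprcWT muscles and the LrpprcP27A muscles, and without it the log2 fold changes of Ccl2 and Ccl7 were -3.54 and -3.66. They were -2.16 and -2.40 without LrpprcWT replicate 1, and -2.19 and -2.26 without LrpprcWT replicate 3. Without either of these libraries neither gene was called (limma adjusted p from 0.076 to 0.138). With median-of-ratios scaling Ccl7 kept its call (limma adjusted p = 0.0415) and Ccl2 did not (limma adjusted p = 0.0571). Ccl8 was at 6.73, 8.25 and 18.1 TPM with LrpprcWT and at 4.22, 1.40 and 4.28 TPM with LrpprcP27A (log2 fold change -1.46 ± 0.39 SE, limma adjusted p = 0.0339). For Ccl8 it was LrpprcWT replicate 3 that stood high, and its call was lost with median-of-ratios scaling (limma adjusted p = 0.0943).

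Ccl11, or eotaxin, which attracts eosinophils through Ccr3, lies 10.27 kb from Ccl7 and was among the most abundant ligands in both groups. It was at 27.8, 18.0 and 37.2 TPM with LrpprcWT and at 24.1, 17.4 and 33.2 TPM with LrpprcP27A. The groups overlapped almost completely (log2 fold change -0.14 ± 0.28 SE, limma adjusted p = 0.705), and the change was above 0 under each other scaling of the libraries. The ratio of Ccl7 to Ccl11 was 1.17, 0.268 and 1.07 in the LrpprcWT libraries and 0.0987, 0.0805 and 0.0631 in the LrpprcP27A libraries (exact permutation test, two-sided, p = 0.1). The ratio of Ccl2 to Ccl11 was 1.36, 0.261 and 0.966 with LrpprcWT and 0.172, 0.0722 and 0.0593 with LrpprcP27A (exact permutation test, two-sided, p = 0.1). Both ratios were thus lower in every LrpprcP27A muscle than in any LrpprcWT muscle, with LrpprcWT replicate 2 nearest to them. Among the ligands of the group the ranking by mean TPM changed accordingly: Ccl2 ranked 5 and Ccl7 ranked 6 of all chemokine genes with LrpprcWT and 17 and 18 with LrpprcP27A, whereas Ccl11 ranked 4 and 2.

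**Figure D2:**
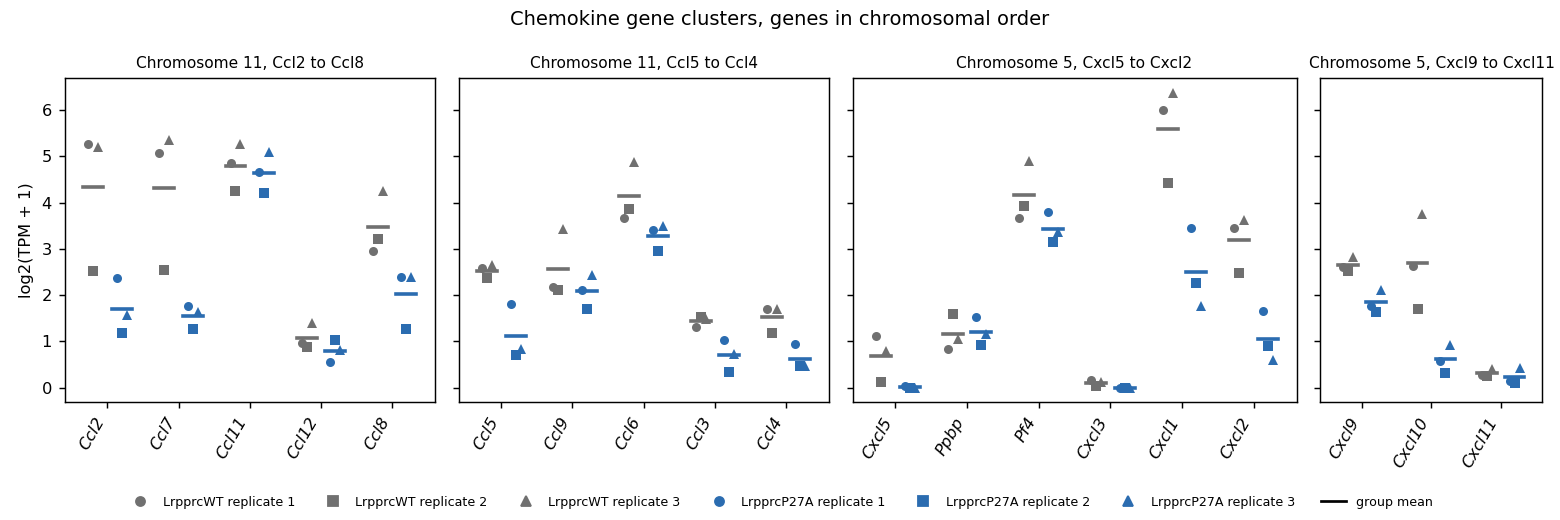
log2(TPM + 1) of ligand genes of 4 clusters in chromosomal order, with the 6 muscles as points (LrpprcWT grey, LrpprcP27A blue, a symbol for each replicate) and group means as bars (n = 3). Genes such as Ccl11, Ppbp and Cxcl11 overlap between the groups beside neighbours such as Ccl7, Cxcl1 and Cxcl10 that do not; Cxcl15, at 0 in every library, is not drawn.

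The other CC cluster of chromosome 11 holds ligands that attract macrophages and activated T cells. Ccl5, or RANTES, was at 4.96, 4.13 and 5.28 TPM with LrpprcWT and at 2.51, 0.637 and 0.795 TPM with LrpprcP27A (log2 fold change -1.41 ± 0.27 SE, limma adjusted p = 0.0174). The LrpprcWT muscles were close to each other, and the highest LrpprcP27A muscle was replicate 1. Ccl4 was at 2.26, 1.28 and 2.23 TPM with LrpprcWT and at 0.913, 0.386 and 0.385 TPM with LrpprcP27A (log2 fold change -0.90 ± 0.20 SE, limma adjusted p = 0.0236). Ccl3 was at 1.50, 1.88 and 1.78 TPM with LrpprcWT and at 1.05, 0.266 and 0.664 TPM with LrpprcP27A (log2 fold change -0.74 ± 0.19 SE, limma adjusted p = 0.0305). Neither Ccl3 nor Ccl4 overlapped between the groups, and an antisense lncRNA shares exonic bases with Ccl3. Ccl5 and Ccl4 were also called with median-of-ratios scaling (limma adjusted p = 0.0425 and 0.0416) and Ccl3 was not (limma adjusted p = 0.112).

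Ccl6 and Ccl9, mouse ligands of Ccr1 made by macrophages and other myeloid cells, lie between Ccl5 and Ccl3 and did not pass the test. Ccl6 averaged 17.9 ± 9.12 TPM with LrpprcWT and 8.86 ± 1.90 TPM with LrpprcP27A (SD, n = 3), with a log2 fold change of -0.85 ± 0.30 (SE, limma adjusted p = 0.0633, and 0.000400 with the replicate block). The large SD came from LrpprcWT replicate 3, at 28.3 TPM, and without that library the log2 fold change was -0.48. Ccl9 averaged 5.54 ± 3.69 and 3.33 ± 1.07 TPM (SD, n = 3; log2 fold change -0.49, limma adjusted p = 0.275, and 0.0172 with the replicate block). LrpprcWT replicate 3 was again the highest, at 9.80 TPM, and without it the log2 fold change was -0.057.

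Of the interferon-induced ligands of Cxcr3, which attract T and NK cells, Cxcl10 and Cxcl9 fell, whereas the scarce Cxcl11 overlapped between the groups. Cxcl11 averaged 0.242 ± 0.0784 TPM with LrpprcWT and 0.174 ± 0.152 TPM with LrpprcP27A (SD, n = 3; limma adjusted p = 0.539 without the filter on low genes), and its highest value of all was in LrpprcP27A replicate 3. Cxcl10 was at 5.19, 2.22 and 12.4 TPM with LrpprcWT and at 0.490, 0.249 and 0.903 TPM with LrpprcP27A (log2 fold change -2.08 ± 0.44 SE, limma adjusted p = 0.0209). Cxcl9 was at 5.13, 4.77 and 6.02 TPM with LrpprcWT and at 2.41, 2.11 and 3.34 TPM with LrpprcP27A (log2 fold change -0.81 ± 0.17 SE, limma adjusted p = 0.0202). For both Cxcl10 and Cxcl9 replicate 3 was the highest and replicate 2 the lowest muscle of each group, and the groups did not overlap. The ratio of Cxcl10 to Cxcl9 was 1.01, 0.466 and 2.06 with LrpprcWT and 0.203, 0.118 and 0.271 with LrpprcP27A (exact permutation test, two-sided, p = 0.1), and it was lower in every LrpprcP27A library. With median-of-ratios scaling Cxcl10 kept its call (limma adjusted p = 0.0358) and Cxcl9 did not (limma adjusted p = 0.0583). Exons of Cxcl10 overlap those of Art3 on the opposite strand, and no strand setting is given in the sources used here, so reads of the overlap may be shared.

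The transmembrane chemokines Cx3cl1 (fractalkine) and Cxcl16, which are shed from the cell surface by metalloproteases, both fell. Cx3cl1, the ligand of Cx3cr1, was at 8.90, 3.27 and 5.77 TPM with LrpprcWT and at 2.18, 1.45 and 1.50 TPM with LrpprcP27A (log2 fold change -1.29 ± 0.28 SE, limma adjusted p = 0.0226, and 0.0375 with median-of-ratios scaling). Cxcl16, the ligand of Cxcr6, was at 7.53, 3.73 and 9.97 TPM with LrpprcWT and at 3.57, 1.59 and 2.34 TPM with LrpprcP27A (log2 fold change -1.16 ± 0.32 SE, limma adjusted p = 0.0352). Cxcl16 groups were separated only narrowly, between LrpprcWT replicate 2 and LrpprcP27A replicate 1, and its call was lost with median-of-ratios scaling (limma adjusted p = 0.0762). Exons of Cxcl16 share 2213 bases with those of Med11 and 2132 bases with those of Zmynd15 on the opposite strand, so its value is uncertain where reads fall there. Exons of Cx3cl1 overlap a lncRNA on the opposite strand.

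Among homeostatic ligands, Ccl21a, Ccl21b and Ccl27a fell, while Ccl21d, Cxcl12 and Cxcl14 were not called. Ccl21a, a ligand of Ccr7 made by lymphatic endothelium and stromal cells, was at 37.0, 22.1 and 33.0 TPM with LrpprcWT and at 16.0, 7.62 and 10.8 TPM with LrpprcP27A (log2 fold change -1.37 ± 0.26 SE, limma adjusted p = 0.0171, and 0.0364 with median-of-ratios scaling). Ccl21b was at 8.97, 3.99 and 4.90 TPM with LrpprcWT and at 3.29, 2.29 and 2.11 TPM with LrpprcP27A (log2 fold change -0.91 ± 0.26 SE, limma adjusted p = 0.0380, and 0.108 with median-of-ratios scaling). Both genes had LrpprcWT replicate 2 as the lowest muscle of its group and did not overlap between the groups. Ccl21d averaged 4.25 ± 2.20 and 1.57 ± 0.843 TPM (SD, n = 3) and overlapped, with a log2 fold change of -1.0 (limma adjusted p = 0.0518, and 1.67e-05 with the replicate block). These copies are nearly identical, so the division of reads among Ccl21a, Ccl21b and Ccl21d is uncertain. Ccl27a, a ligand of Ccr10, was at 8.20, 4.86 and 7.30 TPM with LrpprcWT and at 3.86, 3.60 and 3.49 TPM with LrpprcP27A (log2 fold change -0.72 ± 0.18 SE, limma adjusted p = 0.0297, and 0.0625 with median-of-ratios scaling). Its groups did not overlap, but Ccl27a has the near copy Ccl27b and shares exonic bases with Il11ra1 and a lncRNA on the opposite strand.

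Cxcl14, a ligand made by many tissues, had the highest mean TPM of the 65 genes in both groups. It was at 50.9, 67.3 and 98.9 TPM with LrpprcWT and at 57.7, 62.2 and 87.2 TPM with LrpprcP27A (log2 fold change -0.04 ± 0.24 SE, limma adjusted p = 0.901). In both groups replicate 1 was the lowest and replicate 3 the highest, and the groups overlapped. Cxcl12, the ligand of Cxcr4 and Ackr3, was at 27.3, 21.0 and 26.2 TPM with LrpprcWT and at 25.4, 20.3 and 21.2 TPM with LrpprcP27A (log2 fold change -0.15 ± 0.14 SE, limma adjusted p = 0.418). The groups overlapped, and under each other scaling both Cxcl12 and Cxcl14 had a log2 fold change above 0. With the replicate block and median-of-ratios scaling together, Cxcl12 and Ccl11 were called higher (limma adjusted p = 0.0461 and 0.0365), so that their direction depends on the scaling.

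**Figure D3:**
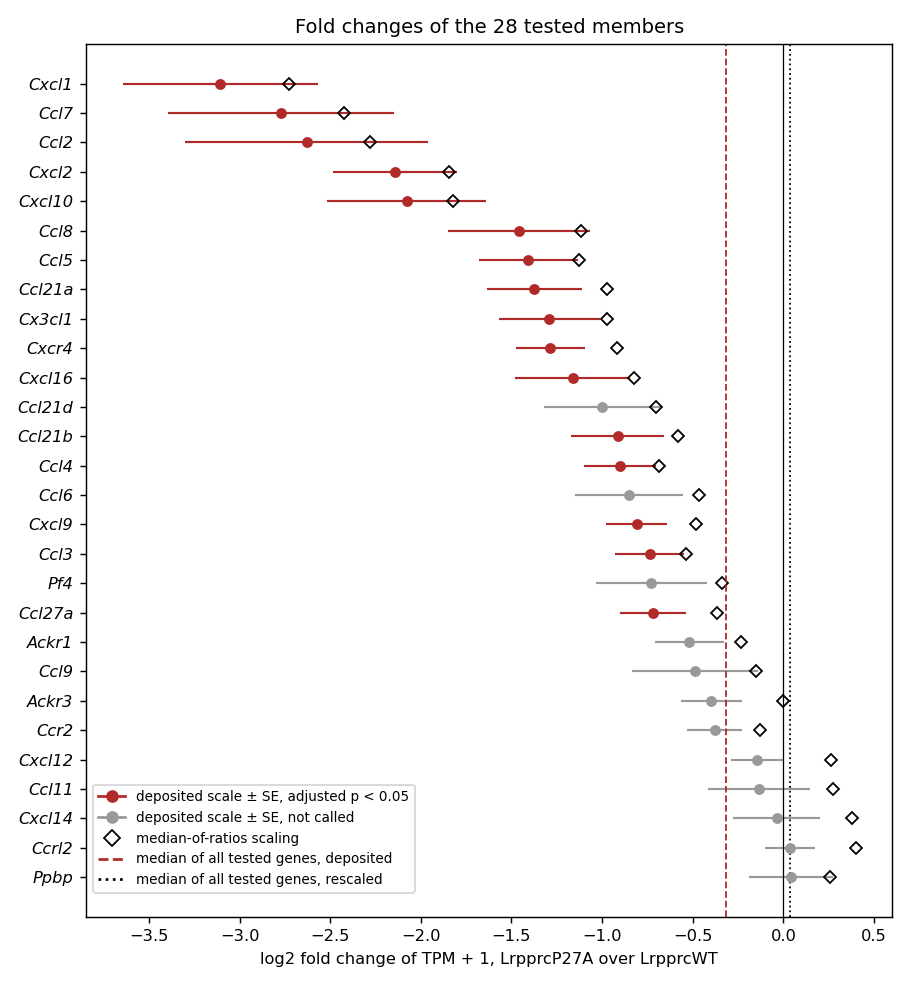
log2 fold change of TPM + 1 (LrpprcP27A over LrpprcWT, x axis) of the 28 tested chemokine genes, with filled points and bars for the deposited scale and its SE, red at a limma adjusted p under 0.05, and open diamonds for median-of-ratios scaling. Cxcl1, Ccl7, Ccl2, Cxcl2 and Cxcl10 lie below -1 under both scalings, while Cxcl12, Ccl11 and Cxcl14 lie below 0 on the deposited scale and above 0 after rescaling; vertical lines give the median of all genes tested at -0.32 and 0.036.

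Of the 19 signalling receptors, Cxcr4 was the most abundant in the muscles and it fell. Cxcr4, the receptor of Cxcl12 on leukocytes, endothelium and muscle precursor cells, was at 13.0, 9.44 and 14.3 TPM with LrpprcWT and at 5.47, 4.17 and 3.60 TPM with LrpprcP27A. All LrpprcP27A muscles lay well below the lowest LrpprcWT muscle (log2 fold change -1.28 ± 0.19 SE, limma adjusted p = 0.0116), the smallest adjusted p of the 28 genes. It had also the smallest with median-of-ratios scaling (limma adjusted p = 0.0231), and was one of 3 genes called without LrpprcWT replicate 1. The ratio of Cxcr4 to its ligand Cxcl12 was 0.474, 0.450 and 0.546 with LrpprcWT and 0.215, 0.206 and 0.170 with LrpprcP27A (exact permutation test, two-sided, p = 0.1). The ratio of Cxcr4 to Ackr3, the atypical receptor of the same ligand, was 0.843, 0.715 and 0.710 with LrpprcWT and 0.421, 0.405 and 0.286 with LrpprcP27A (exact permutation test, two-sided, p = 0.1). Both ratios were lower in every LrpprcP27A library.

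Ccr2, the receptor by which monocytes respond to Ccl2 and Ccl7, averaged 1.92 ± 0.358 TPM with LrpprcWT and 1.24 ± 0.209 TPM with LrpprcP27A (SD, n = 3). Its groups did not overlap, but its log2 fold change of -0.38 ± 0.15 did not pass the test (SE, limma adjusted p = 0.0878, and 0.0340 with the replicate block). The ligands Ccl2 and Ccl7 thus differed between the groups by more on the log2 scale than their receptor, a difference between genes that was not tested.

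None of the 3 tested atypical receptors was called without the block when all libraries were used. With a library left out, Ackr1 was called lower without LrpprcP27A replicate 1 (limma adjusted p = 0.0326). Ackr3 was called lower without LrpprcWT replicate 2 (limma adjusted p = 0.0228). In these fits 14.5% and 59.5% of all genes were called lower. Ackr3, a scavenger of Cxcl12, was at 15.4, 13.2 and 20.1 TPM with LrpprcWT and at 13.0, 10.3 and 12.6 TPM with LrpprcP27A (log2 fold change -0.40 ± 0.17 SE, limma adjusted p = 0.0992, and 0.0172 with the replicate block). The groups were separated only narrowly, and the log2 fold change shrank to -0.0027 under median-of-ratios scaling. Ackr1, which carries chemokines across venular endothelium, averaged 2.88 ± 0.406 and 1.75 ± 0.680 TPM (SD, n = 3; log2 fold change -0.52, limma adjusted p = 0.0705, and 0.0144 with the replicate block), and its groups overlapped. Exons of Ackr1 overlap those of Cadm3 on the same strand. Ccrl2, which binds the chemoattractant chemerin and does not signal, averaged 6.16 ± 0.289 and 6.37 ± 0.831 TPM (SD, n = 3), with a log2 fold change of 0.04 ± 0.14 (SE, limma adjusted p = 0.838). Its groups overlapped, and it was called higher only with the replicate block and median-of-ratios scaling together (limma adjusted p = 0.0173).

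The remaining receptors were scarce, as 16 of the 19 signalling receptors were above 0 but below a mean of 1 TPM and Ccr1l1 was at 0 in every library. Without the filter 21450 genes were fitted, and limma then called 0 of the 31 low chemokine genes at an adjusted p under 0.05, while 12 had an unadjusted p under 0.05, of which 11 were lower, or 35.5%, beside 18.3% of all genes at such levels and 31.1% of all 21450. The groups did not overlap for 11 of the 31, with 10 lower, or 32.3%, against 19.6% lower of all genes at such levels, and 1 higher, against 1.45%. Of the 16 low signalling receptors, 7 were lower without overlap (among them Cx3cr1, Ccr7, Ccr1 and Cxcr3) and 0 were higher, and 8 had an unadjusted p under 0.05. Cx3cr1, the fractalkine receptor of patrolling monocytes and macrophages, averaged 1.31 ± 0.327 and 0.494 ± 0.322 TPM (SD, n = 3; limma adjusted p = 0.0860 without the filter). Ccr7, by which dendritic cells and naive T cells follow Ccl19 and Ccl21, averaged 1.36 ± 0.179 and 0.383 ± 0.267 TPM (SD, n = 3; limma adjusted p = 0.0620 without the filter). Cx3cr1 and Ccr7 each had its LrpprcP27A muscles below all LrpprcWT muscles and missed the threshold after adjustment. Cxcr2, the receptor of Cxcl1 and Cxcl2, overlapped between the groups at 0.841 ± 0.334 and 0.646 ± 0.345 TPM (SD, n = 3), and it is named beside its ligands although it lies outside the rule for named genes, as are the other low receptors listed here with Ccl24, Cxcl3 and Cxcl5.

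**Figure D4:**
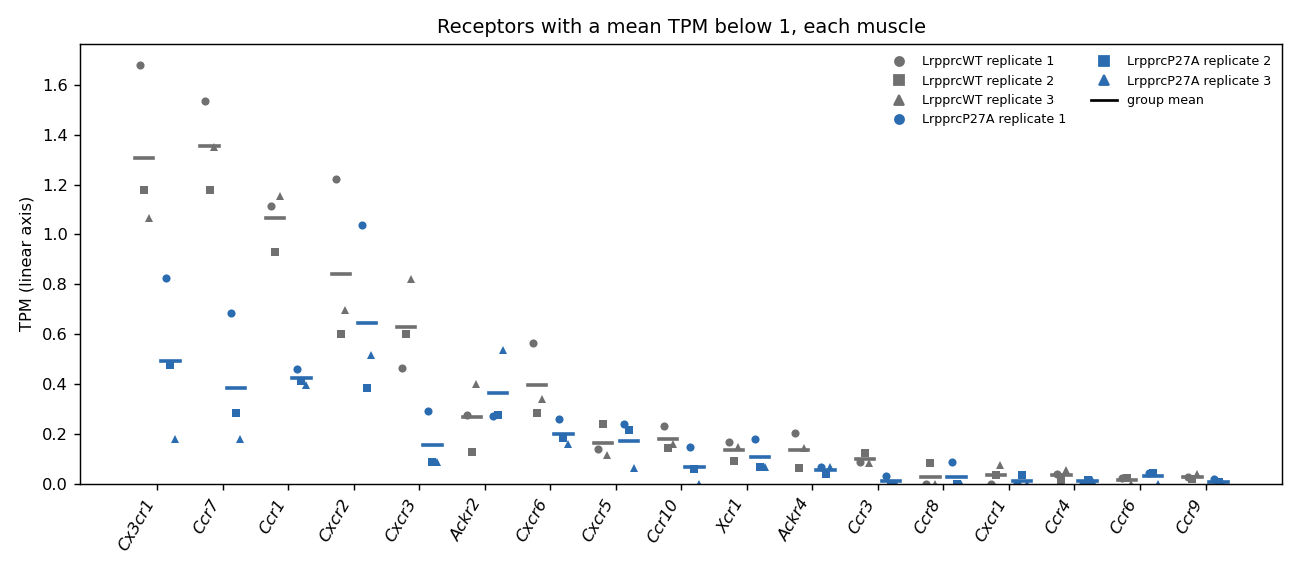
TPM (linear axis) of 17 signalling and atypical receptors that were above 0 but below a mean of 1 TPM, in each of the 6 muscles, with LrpprcWT in grey, LrpprcP27A in blue, a symbol for each replicate and a bar for the group mean (n = 3). Cx3cr1, Ccr7, Ccr1 and Cxcr3 do not overlap between the groups, while Cxcr2 and Ackr2 do.

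Among the 13 low ligands, Ccl12, Ccl25 and Ccl19 had the highest means. Ccl12, a mouse ligand of Ccr2, averaged 1.14 ± 0.426 and 0.756 ± 0.288 TPM, and Ccl25, a ligand of Ccr9, 0.968 ± 0.253 and 0.801 ± 0.149 TPM (SD, n = 3), and both overlapped. Ccl19, the other ligand of Ccr7, averaged 1.02 ± 0.208 TPM with LrpprcWT and 0.623 ± 0.0850 TPM with LrpprcP27A (SD, n = 3) without overlap (limma adjusted p = 0.113 without the filter). The ligands with the letters GGGAATTTCCC beside Cxcl1 and Cxcl2 were nearly absent. Cxcl5 was at 1.17, 0.0799 and 0.732 TPM with LrpprcWT and at 0.0269, 0 and 0 TPM with LrpprcP27A. Cxcl3 was at 0.115, 0.0284 and 0.0936 TPM with LrpprcWT and was listed at 0 in each LrpprcP27A library. Ccl24, an eotaxin like Ccl11, was the low gene that lay higher without overlap, at 0.483 ± 0.128 TPM with LrpprcWT and 0.952 ± 0.0906 TPM with LrpprcP27A (SD, n = 3; limma adjusted p = 0.0695 without the filter). Both Ccl11 and Ccl24 were thus outside the ligands that fell.

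Genes upstream of chemokine transcription were examined next. Of 12 tested cytokines and cytokine receptors that induce chemokines, 5 were called lower and 0 higher, with a median log2 fold change of -0.56. Over all genes tested, 23.3% were called lower and the median was -0.32. Il1b, an inducer of Cxcl1 and Ccl2, was at 12.5, 6.92 and 10.4 TPM with LrpprcWT and at 5.11, 1.55 and 1.87 TPM with LrpprcP27A (log2 fold change -1.59 ± 0.33 SE, limma adjusted p = 0.0205). Il6 was at 8.36, 1.29 and 12.3 TPM with LrpprcWT and at 0.744, 0.0420 and 0.0838 TPM with LrpprcP27A (log2 fold change -2.39 ± 0.56 SE, limma adjusted p = 0.0257). The groups overlapped for neither, and Il6, like Ccl2 and Ccl7, was low in LrpprcWT replicate 2. The TNF receptor Tnfrsf1b had a log2 fold change of -0.90 ± 0.22 (SE, limma adjusted p = 0.0267). With median-of-ratios scaling 3 of the 12 were called lower and 0 higher, beside 5.8% and 6.83% of all genes, and the median was -0.23. The replicate block gave 9 called lower, where 48.4% of all genes were.

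Of 22 tested genes of the NF-kB pathway, 10 were called lower and 1 higher, with a median log2 fold change of -0.57. Over all genes tested, 23.3% were called lower and 1.34% higher. The lowest adjusted p belonged to Nfkbiz, a nuclear IkB protein, at 11.3, 9.15 and 19.9 TPM with LrpprcWT and at 3.69, 2.24 and 1.44 TPM with LrpprcP27A (log2 fold change -2.05 ± 0.30 SE, limma adjusted p = 0.0116). Tnfaip3, or A20, a target and inhibitor of the pathway, was at 9.81, 6.10 and 11.5 TPM and at 3.06, 2.05 and 1.23 TPM (log2 fold change -1.71 ± 0.27 SE, limma adjusted p = 0.0126). Neither overlapped between the groups, and both are themselves induced by NF-kB. Myd88, an adaptor of Toll-like and IL-1 receptors, had a log2 fold change of -0.86 ± 0.17 (SE, limma adjusted p = 0.0189). The gene called higher, named after its value was seen, was Tab2, an adaptor of the kinase Tak1 (log2 fold change 0.41 ± 0.13 SE, limma adjusted p = 0.0457). With median-of-ratios scaling 5 of the 22 were called lower and 1 higher, beside 5.8% and 6.83% of all genes, and the median was -0.19. The replicate block gave 16 called lower and 1 higher, beside 48.4% and 2.69% of all genes.

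Downstream of the receptors, 15 of 38 tested genes of G proteins, their regulators and effectors were called lower and 1 higher, with a median of -0.60. Over all genes tested, 23.3% were called lower and 1.34% higher. Rgs2 and Rgs16, which switch off G protein signals, had log2 fold changes of -0.97 ± 0.21 and -1.54 ± 0.34 (SE, limma adjusted p = 0.0228 and 0.0238). The kinase Src had a log2 fold change of -0.72 ± 0.16 (SE, limma adjusted p = 0.0246). The gene called higher, named after its value was seen, was the Rac activator Tiam1 (log2 fold change 0.73 ± 0.21 SE, limma adjusted p = 0.0401). With median-of-ratios scaling 2 were called lower and 3 higher, or 5.26% and 7.89% of the 38, near the 5.8% and 6.83% of all genes. The replicate block gave 30 called lower and 2 higher, beside 48.4% and 2.69% of all genes. Of 6 tested proteases that cleave or shed chemokines, 4 were called lower and 0 higher (median -1.0). They included the aminopeptidase Anpep and the matrix metalloproteases Mmp2 and Mmp14, with log2 fold changes of -1.36 ± 0.23, -1.48 ± 0.26 and -1.62 ± 0.31 (SE, limma adjusted p = 0.0153, 0.0154 and 0.0175), and these 3 stayed called with median-of-ratios scaling (limma adjusted p = 0.0266, 0.0327 and 0.0376).

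Several lists of markers of the cells that make or bear these genes also held calls, where 23.3% of all genes tested were called lower. The part of these cells in the chemokine values was not tested. Of 11 tested macrophage markers, 10 were called lower (median log2 fold change -1.17), and their summed level was 320 to 641 TPM in the LrpprcWT libraries and 108 to 220 TPM in the LrpprcP27A libraries. The twelfth listed marker, Cd163, a scavenger receptor of resident macrophages named after its values were seen, did not reach a mean of 1 TPM and lay the other way without overlap, at 0.315, 0.581 and 0.480 TPM with LrpprcWT and at 1.07, 0.822 and 1.67 TPM with LrpprcP27A. The macrophage genes Lyz2, Cd68 and Mrc1 had log2 fold changes of -1.54 ± 0.26, -1.69 ± 0.30 and -1.01 ± 0.19 (SE, limma adjusted p = 0.0144, 0.0160 and 0.0168). Of 8 fibroadipogenic markers, 7 were called lower (median -1.22), led by Col3a1, Col1a1 and Clec3b with log2 fold changes of -2.13 ± 0.32, -2.22 ± 0.34 and -1.05 ± 0.20 (SE, limma adjusted p = 0.0116, 0.0124 and 0.0168), and their summed level was 1221 to 1815 TPM and 488 to 882 TPM. With median-of-ratios scaling 4 of the 11 macrophage and 4 of the 8 fibroadipogenic markers were called lower and 0 higher, beside 5.8% and 6.83% of all genes. Macrophage and fibroadipogenic sums thus did not overlap between the groups, as the sum of the ligands did not. Of 10 endothelial markers 3 were called lower (median -0.60), not far from the 23.3% of all genes tested. Their sums were 258 to 453 TPM and 188 to 260 TPM, which overlapped slightly, and with median-of-ratios scaling 0 were called lower and 1 higher. With the replicate block 9 of the 10 endothelial markers were called lower, where 48.4% of all genes were.

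Markers of other leukocytes were sparse, and their counts stand beside 23.3% of all genes tested that were called lower. Of 10 neutrophil markers 4 were tested and limma called 0 (median -0.45), while 1 had an unadjusted p under 0.05. S100a9 was the nearest to the threshold (log2 fold change -0.55 ± 0.19 SE, limma adjusted p = 0.0580, and 0.00510 with the replicate block), while Mpo was at 0 in every library and Ly6g in all but 1. Neutrophil sums were 34.9 to 56.9 TPM with LrpprcWT and 25.3 to 40.7 TPM with LrpprcP27A, and they overlapped. Sums of the 5 CXC ligands Cxcl1, Cxcl2, Cxcl3, Cxcl5 and Cxcl15, at 25.1 to 93.6 and 2.90 to 12.1 TPM, did not. Ppbp and Pf4 were left out of these sums, and with them the sums were 41.3 to 123 and 13.4 to 26.9 TPM. Of the 2 tested T and NK markers Nkg7 was called lower (log2 fold change -0.68, limma adjusted p = 0.0413), with sums of all 12 listed at 7.48 to 9.08 and 2.11 to 4.78 TPM. Of the 2 tested dendritic markers Itgax was called lower (log2 fold change -0.66, limma adjusted p = 0.0444), with overlapping sums of 5.13 to 8.28 and 3.29 to 5.67 TPM. The 2 tested B-cell markers and the 5 tested mast cell and eosinophil markers gave 0 calls in limma (medians -0.27 and -0.18), with 0 and 1 at an unadjusted p under 0.05, and none of the 6 platelet markers reached 1 TPM. With the replicate block limma called 2 of the 4 neutrophil, both of the T and NK, 1 of the 2 B-cell and 1 of the 5 mast cell and eosinophil markers lower, where 48.4% of all genes were called lower. Of 3 tested lymphatic markers Pdpn was called lower (log2 fold change -1.29 ± 0.24 SE, limma adjusted p = 0.0168), while Flt4 and Lyve1 were not (limma adjusted p = 0.353 and 0.471). The sums of all 5 listed were 11.9 to 24.8 and 6.41 to 10.8 TPM. Prox1 and Mmrn1, named after their values were seen, were too low to be tested, and both lay lower without overlap. Prox1 was at 1.34, 0.633 and 0.943 TPM with LrpprcWT and at 0.371, 0.474 and 0.364 TPM with LrpprcP27A. With median-of-ratios scaling Pdpn kept its call (limma adjusted p = 0.0274), and Nkg7 and Itgax did not (limma adjusted p = 0.155 and 0.102).

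Muscle itself was well represented in every library, with myofibre markers summing to 141620 to 156530 TPM with LrpprcWT and 131010 to 148080 TPM with LrpprcP27A. Of 10 myofibre markers 1, the myosin light chain Mylpf, was called lower (log2 fold change -0.59 ± 0.11 SE, limma adjusted p = 0.0168) and 0 higher, and their median log2 fold change was 0.03. With median-of-ratios scaling the myofibre median was 0.45, and 0 were called lower and 1 higher, beside 5.8% and 6.83% of all genes. With the replicate block added to that scaling, 0 were called lower and 5 higher, beside 14.1% and 17.2% of all genes. Of 4 tested satellite cell markers, Myf5 and Pax7 were called lower (log2 fold change -0.87 ± 0.16 and -0.60 ± 0.15 SE, limma adjusted p = 0.0160 and 0.0277), their sums being 17.6 to 22.1 and 13.7 to 14.6 TPM. The satellite sums did not overlap, while the myofibre sums did. Over all genes tested, 23.3% were called lower. With median-of-ratios scaling Myf5 kept its call (limma adjusted p = 0.0304), and Pax7 and Mylpf did not (limma adjusted p = 0.102 and 0.510).

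**Figure D5:**
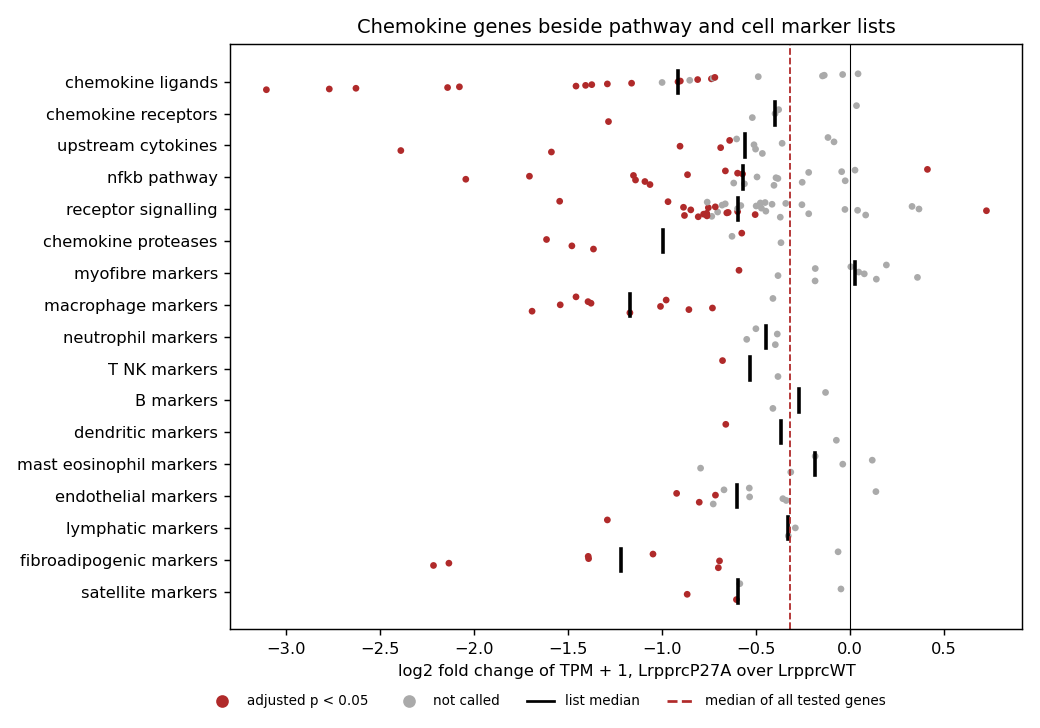
log2 fold change of TPM + 1 (LrpprcP27A over LrpprcWT, x axis) of each tested gene of the chemokine ligands and receptors, the pathway lists and the cell marker lists, red at a limma adjusted p under 0.05, with the median of each list as a black bar. The ligands reach furthest to the left, the medians of macrophage and fibroadipogenic markers lie at -1.17 and -1.22, and the myofibre median lies at 0.03, beside the dashed line at -0.32 for all genes tested.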

How the data were processed

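RNA-seq libraries (TruSeq) were made from 6 TA muscles, 3 per group. The authors trimmed and filtered 100-bp paired reads (Phred 20 or higher, at least 50 bases), mapped them with CLC Genomics Workbench 20.0.4 (GRCm39) and deposited TPM values for 41709 genes, which sum to 1000000 in each library. No strand setting is given in the sources used here. For the results, log2(TPM + 1) of the 11611 genes whose mean over the libraries reached 1 TPM was fitted with limma 3.58.1 in R 4.3.3 (empirical Bayes with trend, Benjamini-Hochberg adjustment over all tested genes). The methods of the study use a Kruskal-Wallis test, tried here as an alternative. Calls mean an adjusted p under 0.05. The fit was tested on simulated data.

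Libraries 4, 8 and 9 of both groups share numbers and come from contralateral muscles. Deviations from the group means correlated by 0.363, 0.528 and 0.356 in same-numbered pairs, so the replicate number was taken to pair the muscles and was used as a block in an alternative.

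Every tested member is named; values per muscle are given for those called and the 5 with the highest means, and up to 3 genes of each list by adjusted p. Members and lists were chosen with earlier results of these data known. Promoters were read from GRCm39 at GENCODE vM39 starts, and all 65 symbols matched. Other alternatives were the pseudocount, filters, scalings and each library left out. The values of 1 receptor gene are not reported here, although it is counted in the totals.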

Additional observations from a re-analysis of the deposited data

How the results depend on the processing

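The number of the chemokine genes called lower was 16, and it was 16 with a pseudocount of 0.1 or limma without the trend (beside 23.3%, 23.8% and 22.6% of all genes). It was 9 with median-of-ratios scaling, 9 with rescaling over nuclear genes and 5 with quantile normalization (beside 5.8%, 5.71% and 4.48% of all genes). It was 7 when genes had to reach a mean of 5 TPM, where 14 chemokine genes were tested and 22.0% of all genes were called lower. It was 0 with the Kruskal-Wallis test, 0 with a linear model without moderation and 0 with no filter, where 0, 1 and 42 of all genes fitted were called lower, although 19, 13 and 31 chemokine genes were lower at an unadjusted p under 0.05 (beside 47.6%, 33.1% and 31.1% of all genes). The Kruskal-Wallis test has few possible values with 3 against 3, and its p was under 0.05 only where the groups did not overlap. Its smallest adjusted p among the chemokine genes was 0.0969, so its count of 0 says little about them. With a library left out the number of calls ranged from 0 (without LrpprcWT replicate 3) to 19 (without LrpprcWT replicate 2), where 0.129% and 59.5% of all genes were called lower. The paired fit with the replicate block called 23 genes lower, adding Ccl21d, Ccl6, Pf4, Ackr1, Ccl9, Ackr3 and Ccr2, and changed no other call among them, while 48.4% of all genes were then called lower. The block with median-of-ratios scaling called 16 lower and 3 higher (Cxcl12, Ccl11 and Ccrl2), beside 14.1% and 17.2% of all genes. The groups did not overlap, lower, for 9 of the 14 genes when a mean of 5 TPM was required, where the share of all genes was not counted. With no filter this held for 29 of 59 genes. Of all genes it held for 47.6% with a mean of at least 1 TPM and 19.6% below that level. The median of the ligands was -1.40 with a pseudocount of 0.1. The median of the receptors was -0.59 with that pseudocount, -0.14 with no filter, -0.065 with quantile normalization and -0.13 with median-of-ratios scaling, with or without the block. Directions reversed for Cxcl12, Ccl11 and Cxcl14, whose log2 fold changes were 0.26, 0.27 and 0.38 with median-of-ratios scaling with or without the block, 0.16, 0.18 and 0.23 with quantile normalization, and 0.036, 0.047 and 0.15 with rescaling over nuclear genes. With a library left out, Ccl11 ranged from -0.40 to 0.10, Cxcl14 from -0.26 to 0.21, Ccrl2 from -0.024 to 0.13 and Ppbp from -0.12 to 0.26. The cause of these changes was not tested. The depth of the libraries is unknown, and 3 muscles per group limit the exact test of a single value to p = 0.1.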
